A study of Oryctolagus cuniculus with 6 samples.

Results

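The iron genes described here are 10 genes that carry, store or sense iron, taken by symbol from the 28788 genes of the files: the ferroxidases CP and HEPH, transferrin (TF) and its receptor TFRC, the ferritin subunits FTH1 and FTL, the transporters SLC11A2 and SLC40A1, and the iron regulatory proteins ACO1 and IREB2. All 10 were found, and all 10 passed the filter on low counts. Their RNA was compared between 3 normal rabbit retina samples and 3 retina samples of proliferative vitreoretinopathy (PVR), a scarring disease in which membranes form on the retina. The PVR model was made in adult rabbits by puncturing the sclera, withdrawing some vitreous body and injecting platelet-rich plasma into the vitreous cavity. No strain, transgene or time after injection is given in the sources used here. Whether the normal eyes had any operation and whether each sample is a separate animal are not given either, so the p-values measure only the spread between these samples, which may be technical.

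Iron reaches cells as ferric iron bound to transferrin, which binds the transferrin receptor and is taken into endosomes. There the iron is reduced, for instance by STEAP3, and SLC11A2 moves it into the cytosol. Ferritin, a shell of FTH1 and FTL subunits, stores it, and SLC40A1 (ferroportin) is the exporter of iron from the cell. CP (ceruloplasmin, a secreted or membrane-anchored copper enzyme) and HEPH (hephaestin, its membrane-bound relative) oxidise the exported iron so that transferrin can bind it. In the retina both ferroxidases are known from Müller glia and the pigment epithelium, and loss of CP in people leads to iron build-up that includes the retina. ACO1 and IREB2 bind iron-responsive elements when iron is low, which stabilises the TFRC message and holds back the translation of ferritin, so a ferritin RNA level does not show how much ferritin protein is made.

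The samples had between 31904593 and 43035080 counted reads. Levels are given as FPKM, the deposited values in which reads are divided by gene length and by the depth of the sample, which allows genes to be compared with each other. Differences were tested on the deposited counts with edgeR's quasi-likelihood test over 18697 genes, with Benjamini-Hochberg adjusted p-values and a threshold of 0.05, and a log2 fold change is PVR minus normal. The rod arrestin gene SAG was abundant in all samples (between 1341 and 1869 FPKM). It was the least changed of 8 photoreceptor markers, all of which had negative log2 fold changes (-0.45 to -0.10). None of the 8 was called with edgeR (5 at an unadjusted p under 0.05, 1 by DESeq2 and 0 by limma-voom). Normal replicate 2 stood apart, with a summed level of 8 lens genes (led by CRYAA) of 35103 FPKM against 16.2 and 13.2 in the other normal samples and 283 to 331 in the PVR samples. Oligodendrocyte genes also varied among the normal samples, with a summed level of 92.6, 217 and 461 FPKM over 12 genes, against 56.7 to 59.7 FPKM in the PVR samples.

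Of the 10 iron genes, CP rose and TFRC fell past the threshold, against 1.70% of all genes tested (1.09% higher and 0.615% lower in PVR). HEPH also differed by a large factor but missed the threshold, and the remaining 7 had fitted log2 fold changes between -0.49 and 0.22. The fold threshold of the study (more than 1 up or down on the log2 scale) was then added to the edgeR calls. CP was the only member left, and 1.01% of all genes tested passed. With DESeq2, the tool of the study, HEPH passed both thresholds beside CP (log2 fold change 1.29, DESeq2 adjusted p = 0.00192). TFRC, at -0.98 with DESeq2, missed the fold threshold. By these DESeq2 thresholds 807 of the 28788 genes passed. The groups did not overlap for 4 of the 10 genes, namely CP, HEPH, TFRC and SLC40A1, against 28.0% of all genes tested. The median log2 fold change was 0.05 over the 10 genes and -0.01 over all genes tested. The number of members past the threshold was 3 with DESeq2 and 3 without normal replicate 2, where HEPH was added. It was 1 without PVR replicate 1 and 1 without PVR replicate 2, where TFRC was lost. Over all 18697 genes tested, 3963 had an unadjusted edgeR p under 0.05, DESeq2 called 1698 and limma-voom 215.

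**Figure D1:**
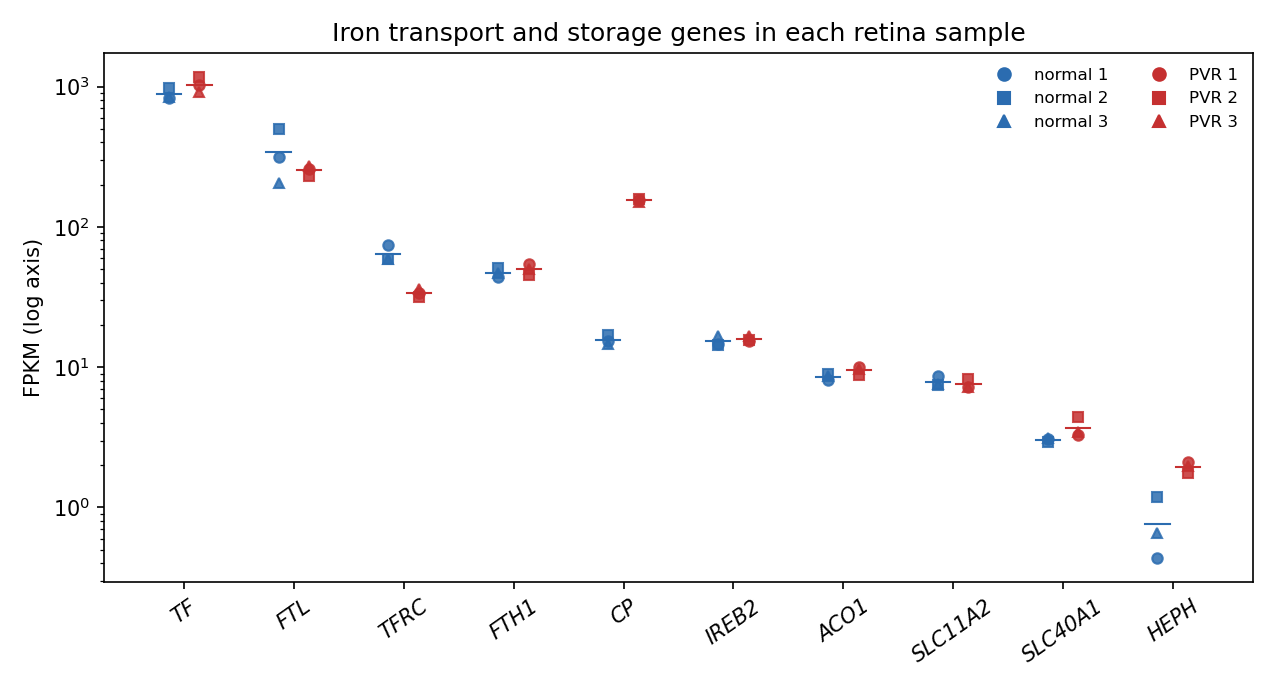
FPKM of the 10 iron genes on a log axis in each normal (blue) and PVR (red) sample, with lines at the group means and genes ordered by their normal mean. CP stands at 14.7 to 16.9 in the normal samples and at 150 to 157 in the PVR samples, TFRC is lower in every PVR sample, and TF stays the most abundant of the 10 in both groups.

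The 10 genes differed widely in level. In the normal retina TF was highest with a mean of 886 FPKM and HEPH lowest with 0.758 FPKM. Between them stood FTL at 340, TFRC at 63.9, FTH1 at 47.3, CP at 15.6, IREB2 at 15.3, ACO1 at 8.57, SLC11A2 at 7.89 and SLC40A1 at 3.04 FPKM. Among neighbours in this order, the sample values overlapped for CP and IREB2 and for ACO1 and SLC11A2, and for no others. In the PVR retina no neighbours overlapped. The order differed in the place of CP, which stood at position 3 with a mean of 155 FPKM, above FTH1 at 50.0 and TFRC at 33.8 FPKM. FTH1 thus stood above TFRC in the PVR samples and below it in the normal samples.

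CP rose more than any other member. Its level was 15.4, 16.9 and 14.7 FPKM in the normal samples and 156, 157 and 150 FPKM in the PVR samples. The lowest PVR sample was therefore far above the highest normal sample, and the 3 PVR samples lay within a few FPKM of each other (155 ± 3.65, SD, n = 3). The fitted change was 9.40-fold, with a 95% interval of 7.96 to 11.1 (log2 fold change 3.23, standard error 0.10, edgeR adjusted p = 3.45e-05). Ranked by FPKM over all genes, CP moved from positions 3780 to 4355 in normal retina to positions 202 to 248 in PVR. Its reads made up 1.9% to 2% of the reads of the 10 iron genes in normal retina, against 14.9% to 16.6% in PVR. CP was past the threshold in all 15 alternative settings, with a log2 fold change between 3.18 and 3.31.

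CP is also made by the liver and carried in plasma, and the model adds plasma to the eye. Liver plasma protein genes were at or near 0 in these libraries: ALB had at most 4 counts in any sample, APOA1 and FGB at most 2, AHSG at most 1, and FGA had none. TTR, which the pigment epithelium also makes, was the exception on that list and had 56.4 to 117 FPKM in normal retina and 23.7 to 31.8 FPKM in PVR. These counts measure RNA, so they cannot show whether plasma protein was present in the samples. Müller glia genes, over 7 markers led by VIM, summed to 985 to 1288 FPKM in the normal samples and 977 to 1028 FPKM in the PVR samples. Within that list, and named after their values were seen, GLUL, the glutamine synthetase of these glia, and RLBP1, a retinoid carrier, were called lower (edgeR log2 fold changes -1.11 and -0.89, adjusted p = 0.0125 and 0.0294). Of the 7 markers, 5 had negative and 2 positive log2 fold changes. EdgeR called 2 of the 7, DESeq2 3 and limma-voom 2, against 318, 1698 and 215 of all 18697 genes tested. GFAP, the filament protein of reactive glia, had 20.0, 60.5 and 86.1 FPKM in the normal samples and 157, 164 and 138 FPKM in the PVR samples (edgeR adjusted p = 0.143). In tissue RNA, fewer cells of a type and less RNA per cell cannot be told apart, and the part of these markers in the rise of CP was not tested.

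HEPH was scarce. It had 0.437, 1.18 and 0.660 FPKM in the normal samples and 2.1, 1.77 and 1.99 FPKM in the PVR samples. The lowest PVR value was above the highest normal value, and the normal samples differed among themselves more than the PVR samples did. The fitted change was 2.44-fold, with a 95% interval of 1.39 to 4.29 that is not adjusted for the number of genes (edgeR adjusted p = 0.107). The highest normal value was that of replicate 2, the sample with the lens genes. Without it the log2 fold change was 1.79 in place of 1.29 (edgeR adjusted p = 0.0470), and with DESeq2 on all samples the adjusted p was 0.00192. Over the 15 alternatives the adjusted p of HEPH ranged from 0.00192 to 0.331 and was under 0.05 in these 2. The part of the lens genes in the value of that sample was not tested.

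**Figure D2:**
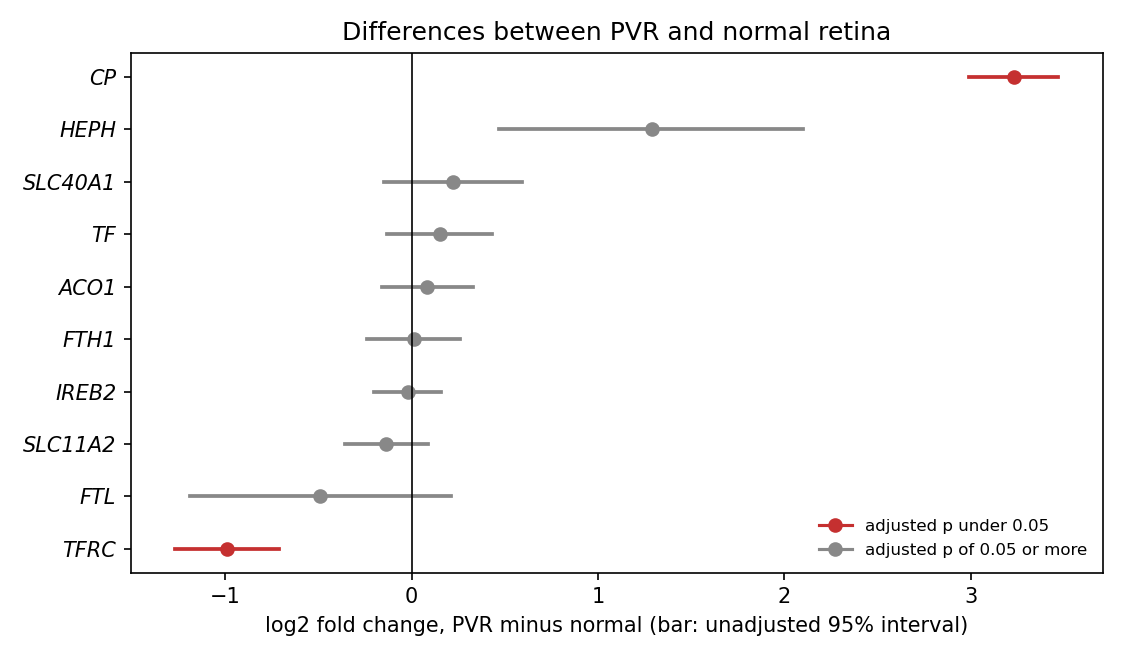
Fitted log2 fold change (PVR minus normal) of each iron gene with its unadjusted 95% interval, in red where the edgeR adjusted p was under 0.05. CP at 3.23 and TFRC at -0.99 are the called genes, the interval of HEPH runs from 0.47 to 2.1, and the intervals of the other 7 genes include 0.

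TFRC, the receptor that brings iron-loaded transferrin into the cell, was lower in the PVR retina. Its level was 74.0, 58.8 and 58.9 FPKM in the normal samples and 33.8, 31.8 and 35.9 FPKM in the PVR samples. The groups did not overlap, and normal replicate 1 was above the other normal samples. The fitted level in PVR was 0.505 of the normal level, with a 95% interval of 0.416 to 0.612 (log2 fold change -0.99, standard error 0.12, edgeR adjusted p = 0.0157). By p, TFRC stood at position 62 of all genes tested, and CP at position 1. The log2 fold change lay between -1.05 and -0.87 in all 15 alternatives. The adjusted p was under 0.05 in 13 of them, the exceptions being the tests without PVR replicate 1 (0.141) and without PVR replicate 2 (0.0529).

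TFRC is known to be very high in young red blood cells, so blood genes were read beside it. Red blood cell genes summed to 46.5 to 50.7 FPKM in the normal samples and 20.0 to 34.0 FPKM in the PVR samples, nearly all of it from the haemoglobin genes HBA1 and HBB. SLC4A1, the anion exchanger of the red blood cell membrane, had at most 1 count in any sample. None of the 3 red blood cell genes that could be tested was called with edgeR (1 at an unadjusted p under 0.05, 1 by DESeq2 and 0 by limma-voom). For all 18697 genes tested the counts were 3963, 1698 and 215. The part of blood in the fall of TFRC was not tested.

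TF, the ligand of that receptor, was among the most abundant messages of the retina. It had 827, 981 and 849 FPKM in the normal samples and 1020, 1170 and 913 FPKM in the PVR samples. This put TF between positions 20 and 30 of all genes in normal retina, and between positions 11 and 15 in PVR. The groups overlapped, since normal replicate 2 was above PVR replicate 3. The fitted change was 1.11-fold with a 95% interval of 0.915 to 1.35 (edgeR adjusted p = 0.490). TF took 63.0% to 71.3% of the reads of the 10 genes in every sample. Together the 10 genes made up 0.272% to 0.324% of all counted reads in normal retina, and 0.331% to 0.386% in PVR.

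Outside the liver, TF is known from oligodendrocytes and the pigment epithelium. The summed levels of both cell types' genes were lower in the PVR samples. Of 12 oligodendrocyte genes, all had negative log2 fold changes (median -2.45), and 4 were called lower with edgeR (10 by DESeq2 and 1 by limma-voom), where 0.615% of all genes tested were called lower. Of 7 pigment epithelium genes tested, 4 had negative and 3 positive log2 fold changes. LRAT and TTR were called lower (edgeR log2 fold changes -2.82 and -1.56), while 3 of the 7 were called by DESeq2 and 0 by limma-voom. The positive values were 0.53 for BEST1, whose groups did not overlap (edgeR adjusted p = 0.215), 0.15 for SERPINF1 and 0.00 for MITF. The summed level of the list was 93.0 to 204 FPKM in the normal samples and 49.4 to 58.2 FPKM in the PVR samples. Among the normal samples, oligodendrocyte genes were highest in replicate 3 and pigment epithelium genes in replicate 2, and TF was highest in replicate 2. The part of either cell type in the level of TF was not tested.

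The ferritin subunits showed no called change. FTH1, the subunit that oxidises iron as it enters the shell, had 43.6, 51.0 and 47.3 FPKM in the normal samples and 54.2, 45.7 and 50.1 FPKM in the PVR samples. These values interleave, and the fitted change of 1.01-fold had a 95% interval of 0.844 to 1.2 (edgeR adjusted p = 0.972). FTL, the subunit that helps the iron core to form, had 313, 501 and 205 FPKM in the normal samples and 260, 231 and 273 FPKM in the PVR samples. The normal samples of FTL spanned the whole range of the PVR samples, with replicate 2 at the top and replicate 3 at the bottom. The log2 fold change of FTL was -0.49 with a 95% interval of -1.19 to 0.21 (edgeR adjusted p = 0.376). Leaving out normal replicate 2 gave -0.07, and leaving out normal replicate 3 gave -0.76. Ferritin genes have processed copies in many mammals, and how reads shared with such copies were counted is not given in the sources used here, so both levels are uncertain.

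The membrane transporters were expressed at low levels and were not called. SLC11A2, the carrier that takes iron out of the endosome, had 8.59, 7.51 and 7.57 FPKM in the normal samples and 7.26, 8.18 and 7.18 FPKM in the PVR samples. Its groups overlapped, and the fitted change was 0.910-fold with a 95% interval of 0.781 to 1.06 (edgeR adjusted p = 0.434). SLC40A1, the exporter, had 3.06, 2.93 and 3.11 FPKM in the normal samples and 3.29, 4.38 and 3.47 FPKM in the PVR samples. All 3 PVR samples were above the normal samples, but PVR replicate 1 only by a small margin. The fitted change was 1.16-fold with a 95% interval of 0.903 to 1.5 (edgeR adjusted p = 0.447), and without PVR replicate 2, the highest sample, the log2 fold change was 0.10 in place of 0.22.

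Neither gene of the iron regulatory proteins was called. ACO1, which is a cytosolic aconitase when it holds an iron-sulfur cluster and an RNA-binding protein when it does not, had 8.04, 8.96 and 8.69 FPKM in the normal samples and 10, 8.83 and 9.78 FPKM in the PVR samples. IREB2, which is degraded when iron is plentiful, had 14.7, 14.5 and 16.7 FPKM in the normal samples and 15.4, 15.6 and 16.6 FPKM in the PVR samples. Both pairs of groups overlapped. The 95% interval of the fold was 0.895 to 1.26 for ACO1 and 0.869 to 1.12 for IREB2 (edgeR adjusted p = 0.667 and 0.906). Both proteins are controlled mainly after translation, which RNA counts do not measure.

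**Figure D3:**
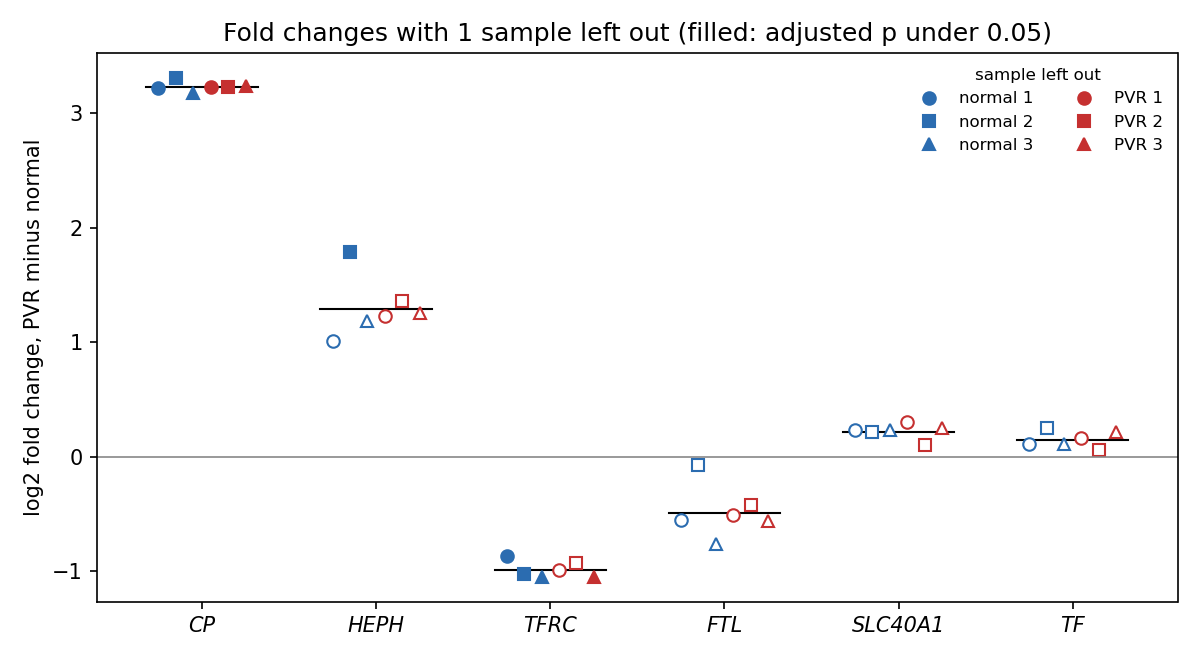
Log2 fold change (PVR minus normal) of CP, HEPH, TFRC, FTL, SLC40A1 and TF with each sample left out in turn, as a marker per sample, filled where the edgeR adjusted p was under 0.05, with a line at the value from all 6 samples. CP stays between 3.18 and 3.31, TFRC loses the threshold without PVR replicate 1 or 2, HEPH passes it only without normal replicate 2, and FTL moves to -0.07 without normal replicate 2.

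Ratios within a sample do not depend on how samples are scaled to each other, and 3 were compared. The ratio of TFRC to FTH1 sets the importer against the storage subunit, since the iron-responsive elements of the messages act in opposite directions on the proteins. It was 1.70, 1.15 and 1.25 in normal retina against 0.623, 0.696 and 0.717 in PVR. The receptor message was the more abundant of the pair in every normal sample and the less abundant in every PVR sample. On the log2 scale the ratio was lower in PVR by a difference of -0.99 (two-sided exact permutation test of 3 against 3 samples, p = 0.1, the smallest this design allows, and 0.15 adjusted over the 3 ratios). Without single samples the difference lay between -1.10 and -0.82. The fitted log2 fold change was -0.99 for TFRC and 0.01 for FTH1, so the ratio restates the fall of TFRC and is no separate result.

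The ratio of CP to HEPH was 35.1, 14.3 and 22.3 in normal retina against 74.4, 88.6 and 75.7 in PVR. CP exceeded HEPH in all samples, and by more in each PVR sample than in any normal sample. The difference was 1.83 on the log2 scale (two-sided exact permutation test, p = 0.1, adjusted 0.15). The ratio of FTH1 to FTL was 0.139, 0.102 and 0.230 in normal retina against 0.208, 0.197 and 0.183 in PVR. FTL was the more abundant ferritin message throughout, the groups overlapped, and the difference of 0.40 on the log2 scale was within the spread of the normal samples (SD 0.59, two-sided exact permutation test, p = 0.4, adjusted 0.4). Leaving out normal replicate 2 moved this difference to 0.13, and leaving out normal replicate 3 moved it to 0.72.

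**Figure D4:**
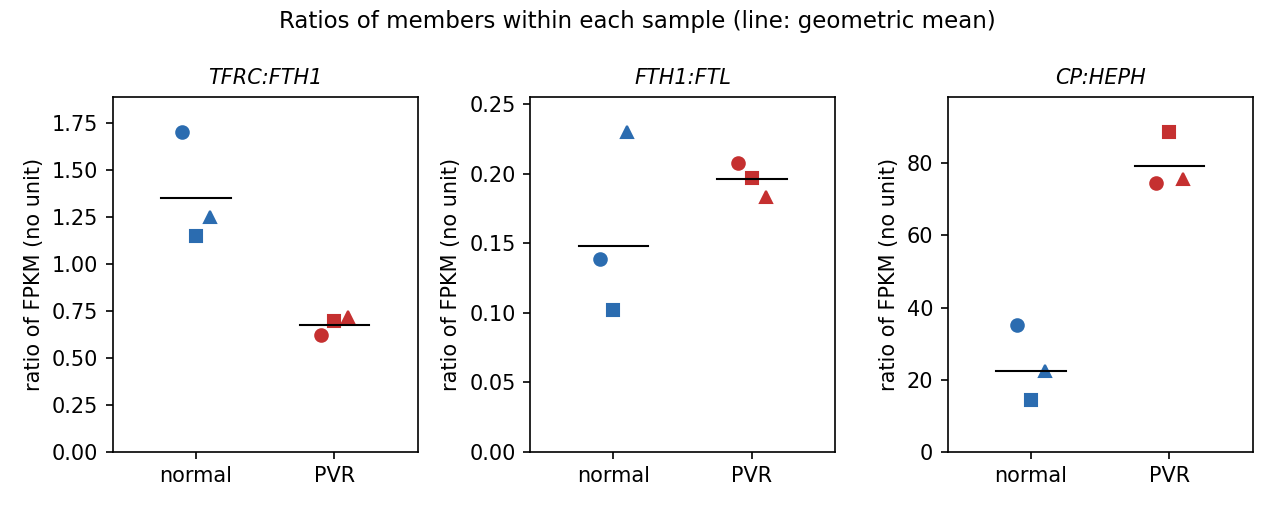
Ratios of FPKM within each sample for TFRC to FTH1, FTH1 to FTL and CP to HEPH, with lines at the geometric means of the 3 normal and 3 PVR samples and axes from 0. TFRC to FTH1 is 1.15 to 1.70 in normal and 0.623 to 0.717 in PVR samples, CP to HEPH is higher in all PVR samples, and the FTH1 to FTL groups overlap.

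Few genes of the wider set of iron, heme and copper genes were called with edgeR. Of 71 genes on 5 lists, 69 were in the files and 62 could be tested. Only STEAP3 was called, which is 1.61% of the 62 and near the 1.70% of all genes tested. Of the 62, 52 had fitted changes within a log2 fold change of 1 in either direction, against 16681 of all 18697 genes tested. The median was -0.11, against -0.01 over all genes tested. Of the 62, 41 were negative and 21 positive, against 9551 negative and 9146 positive over all genes tested. With DESeq2, 6 of the 62 were called, against 1698 of the 18697 genes tested.

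STEAP3, the reductase that acts on transferrin-bound iron inside the endosome, was on the list of uptake and reduction genes. Its count was 12, 9 and 13 in normal retina against 50, 71 and 51 in PVR, which is a low level (mean 0.0887 and 0.514 FPKM). The groups did not overlap, and the fitted rise was 5.46-fold with a 95% interval of 2.81 to 10.6 (edgeR adjusted p = 0.0402). This call was held in 6 of its 14 alternatives, and the adjusted p ranged up to 0.223. Of the settings with a sample left out, it was held only without PVR replicate 3 (0.0369), while the others gave 0.126 without normal replicate 1, 0.144 without normal replicate 2, 0.0510 without normal replicate 3, 0.223 without PVR replicate 1 and 0.108 without PVR replicate 2. Of the other 8 genes tested on this list none was called with edgeR. The most abundant were CYBRD1, a ferric reductase, at means of 12.1 and 12.7 FPKM in normal and PVR samples, and SLC39A14, a metal importer, at 9.82 and 8.64 FPKM.

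None of 9 genes tested for the hepcidin axis, ferritin turnover and iron chaperones was called with edgeR (4 at an unadjusted p under 0.05, 2 by DESeq2, 0 by limma-voom). Over all 18697 genes tested these counts were 3963, 1698 and 215. The chaperones PCBP2 and PCBP1, which hand iron to ferritin, were the most abundant, at means of 173 and 144 FPKM in the normal samples and 153 and 131 FPKM in the PVR samples. HAMP, the hormone hepcidin that removes SLC40A1 from the membrane, had at most 5 counts in any sample and was not tested. Of 15 mitochondrial iron and iron-sulfur cluster genes none was called (1 at an unadjusted p under 0.05, 0 by DESeq2 and 0 by limma-voom). ISCU, the scaffold on which iron-sulfur clusters are built, had means of 36.9 and 38.7 FPKM in normal and PVR samples.

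Of 19 heme genes none was called with edgeR (5 at an unadjusted p under 0.05, 2 by DESeq2, 0 by limma-voom). The same counts over all 18697 genes tested were 3963, 1698 and 215. LRP1, a receptor that also takes up heme bound to hemopexin, had means of 27.7 and 27.8 FPKM in normal and PVR samples. HP, which binds free haemoglobin, had 5.30, 16 and 14 FPKM in the normal samples and 24.9, 7.22 and 46.0 FPKM in the PVR samples, so its groups overlapped. None of 10 copper genes was called by edgeR (0 at an unadjusted p under 0.05, 0 by DESeq2 and 0 by limma-voom), and their fitted log2 fold changes lay between -0.17 and 0.14. The most abundant were MT3, a metallothionein, at means of 113 and 110 FPKM, and COX17, a mitochondrial copper chaperone, at 18.3 and 20.5 FPKM. The copper pumps ATP7A and ATP7B, of which the second loads copper into CP in the liver, had log2 fold changes of 0.13 and 0.14 (edgeR adjusted p = 0.402 and 0.503) and were named after their values were seen.

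**Figure D5:**
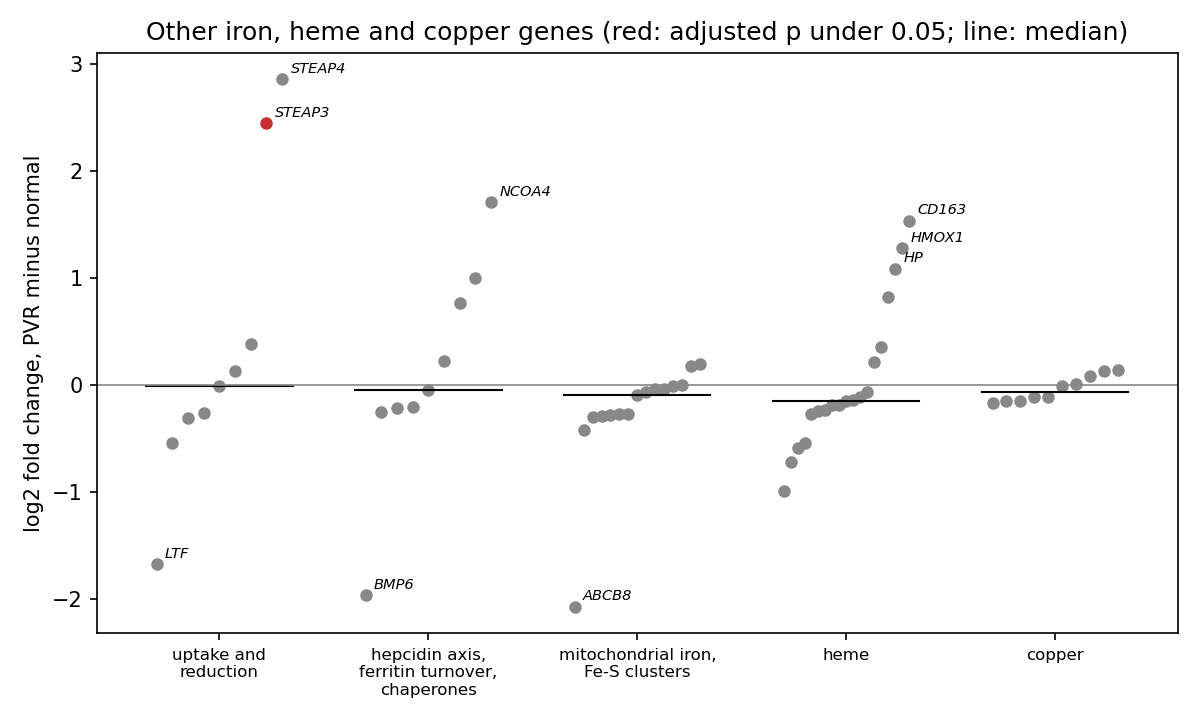
Fitted log2 fold change (PVR minus normal) of the 62 tested iron, heme and copper genes on 5 lists, each a point, with a line at the median of each list and names for called genes and those beyond 1. STEAP3, at 2.45, is the called gene, and all copper genes lie between -0.17 and 0.14.

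The 5 genes that DESeq2 called in addition to STEAP3 were chosen after their values were seen. STEAP4, a metal reductase, had 0.180, 0.131 and 0.617 FPKM in the normal samples and 2.20, 1.02 and 3.77 FPKM in the PVR samples (edgeR adjusted p = 0.0864). HMOX1, the inducible enzyme that frees iron from heme, had 0.480, 1.34 and 0.666 FPKM against 2.20, 2.43 and 1.77 FPKM (edgeR adjusted p = 0.155). NCOA4, the receptor that delivers ferritin for breakdown, had 0.930, 0.780 and 0.656 FPKM against 3.01, 1.08 and 3.99 FPKM (edgeR adjusted p = 0.108). All 3 were above the normal samples in every PVR sample. BMP6, an inducer of hepcidin, and UROD, an enzyme of heme synthesis, were below the normal samples in every PVR sample. Their edgeR log2 fold changes were -1.96 and -0.99 (adjusted p = 0.0770 and 0.128). The groups did not overlap for 20 of the 62 genes, against 28.0% of all genes tested.

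Macrophages and microglia handle much of the iron freed from heme, and the summed level of their markers differed beside these genes. Over 9 markers led by C1QA, the summed level was 11.2 to 29.7 FPKM in the normal samples and 32.2 to 46.9 FPKM in the PVR samples, and all 9 fitted log2 fold changes were positive (median 0.95). None was called with edgeR (4 at an unadjusted p under 0.05, 4 by DESeq2, 0 by limma-voom). Among all 18697 genes tested these counts were 3963, 1698 and 215. Platelet genes, read because platelet-rich plasma was injected and led by GP1BB, summed to 3.18 to 6.47 FPKM in the normal samples and 4.86 to 6.62 FPKM in the PVR samples. None of 5 platelet genes tested was called with edgeR (0 at an unadjusted p under 0.05, 0 by DESeq2 and 0 by limma-voom). Endothelial genes, over 8 markers led by KDR, summed to 93.0 to 96.6 FPKM in normal and 107 to 111 FPKM in PVR samples. Most of this sum came from KDR and FLT1, at normal means of 63.5 and 26.1 FPKM. Of the 8, 5 had negative and 3 positive log2 fold changes (median -2.44), the positive ones being KDR, FLT1 and PECAM1 at 0.17 to 0.27. The scarce VWF and CDH5 were called lower with edgeR (log2 fold changes -5.02 and -6.86), where 0.615% of all genes tested were called lower. DESeq2 called 4 of the 8 and limma-voom 1, against 1698 and 215 of all 18697 genes tested. The part of these cells in STEAP3, HMOX1 or SLC40A1 was not tested.

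Over the 6 samples, the profile of CP was compared with those of 9516 genes with a symbol and a mean log2 CPM of at least 3. The most alike by Pearson's r of log2 CPM were EDNRB (0.9968), SERPING1 (0.9960), CEBPD (0.9956), GPRASP3 (0.9949) and IMPACT (0.9947). EDNRB, SERPING1 and CEBPD had log2 fold changes from 2.72 to 2.99, whereas GPRASP3 and IMPACT had 0.38 and 0.50, since r does not depend on the size of a change. For TF the most alike were NAGK, DNAAF9, MARCHF3, HEY2 and PAAF1 (r from 0.9776 to 0.9921), with log2 fold changes from 0.05 to 0.35. With 6 points that share depth and a difference between groups, such values describe these libraries only.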

How the data were processed

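Polyadenylated retina RNA of 3 normal and 3 PVR samples was sequenced. The authors processed reads with fastp, HISAT2 (OryCun2.0) and HTSeq, and deposited raw counts per gene and FPKM values, whose depth is the total count of each sample. The annotation, strand setting and treatment of reads with several matches are not given in the sources used here. The labels and the paper name different library kits. Both tables were matched to samples by column name. Samples of a group differed by a chi-square per degree of freedom of at least 19.6 between counts, so none was a copy of another.

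Counts were tested in R 4.3.3 with edgeR 4.0.16 (default filter, TMM, quasi-likelihood, condition as the single term), p-values adjusted by Benjamini-Hochberg over 18697 genes. The standard error is the log2 fold change over the square root of F, and intervals are 95%. DESeq2 1.42.0 (the study's tool), limma 3.58.1, other factors and filters, FPKM with pseudocounts of 1 and 0.1, a block for the replicate number, and single samples left out, were the alternatives. The tests were checked on simulated counts. Ratios were tested in SciPy 1.17.1.

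The members and lists were chosen with earlier results of these data known. Genes named are the members, called genes and the 2 most abundant of each wider list, the leading gene of each marker list, and the 5 genes most like CP and TF. Other marker genes, and genes marked so in the text, were named after their values were seen. Some genes that this rule would name are not reported here. Genes absent by symbol were matched through RefSeq gene IDs or synonyms of mOryCun1.1, used for names only. MT1A, MT2A, PF4, C1QC and SERPINA1 were not matched. No sequences or genome positions were used here.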

Additional observations from a re-analysis of the deposited data

How the results depend on the processing

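CP kept its direction and its side of the threshold in all 15 alternatives, and TF, FTL, SLC40A1, SLC11A2 and ACO1 kept theirs without being called. The number of genes past the adjusted p threshold was 318, against 1755 with DESeq2, 92 with a replicate block and between 22 and 650 with single samples left out. Of the genes called by DESeq2, 1698 were among the 18697 tested with edgeR. The members past it numbered 2, and 1 to 3 with single samples left out. The wider genes past it numbered 1, against 6 with DESeq2 and 0 each with limma-voom, limma on log2(FPKM + 1) and at least 10 counts in every sample, where STEAP3 was not tested, and between 0 and 3 with single samples left out. Wider genes other than STEAP3 passed with the replicate block (1), without PVR replicate 2 (1) and without normal replicate 3 (3). STEAP3 itself did not pass in these settings, and the genes that did are not named here. Values near 0 changed sign: FTH1 (0.01) was -0.04 without normal replicate 1, -0.002 without normal replicate 3, -0.05 without PVR replicate 1 and -0.01 without PVR replicate 3, in a range of -0.05 to 0.09 over single samples left out. IREB2 (-0.02) was 0.01 with upper-quartile factors, 0.05 with limma on log2(FPKM + 1) and on log2(FPKM + 0.1), 0.04 without normal replicate 3, 0.0025 without PVR replicate 1 and 0.0034 without PVR replicate 2, in a range of -0.07 to 0.04 over single samples left out. The cause was not tested. The ratio differences kept their sign throughout, with FTH1 to FTL between 0.13 and 0.72 over single samples left out. Deviations of same-numbered samples from their group means had r of -0.0129, 0.0734 and 0.0417 over genes. Other pairs of a normal and a PVR sample gave -0.0828 to 0.0427. Such deviations also hold what is particular to a sample, such as the lens genes of normal replicate 2. They therefore cannot decide whether the numbers pair samples. The replicate block ended the call of STEAP3 (edgeR adjusted p = 0.111) and of no member, with TFRC at 0.0487. The members had at least 125 counts in every sample, and STEAP3 had 9 to 71.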
